A study of Caenorhabditis elegans with 32 samples.

Results

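The genes described here are the *C. elegans* astacin metalloproteases and the genes of molting and of the apical matrix that are named with them, namely all protein-coding genes whose symbol begins with *nas-*, *mlt-*, *noah-*, *lpr-* or *pxn-*, together with *bli-3*, *fbn-1* and *let-653*. The deposited table held 46589 genes, of which 20528 were protein-coding, and 58 of these met the definition. There were 36 *nas* genes, 8 *mlt*, 7 *lpr*, 2 *noah* and 2 *pxn* genes and the 3 single genes, and 16 of the 58 lay on chromosome V and 15 on chromosome X. The pseudogene *nas-40*, with 7 to 20 counts in each WT library and 0 to 2 in every other library, was left out because it encodes no protein. In all, 52 members reached a mean of 1 CPM (counts scaled to a normalized library total of 1000000) in at least 1 group. The other 6 stayed below it in every group, and 1 of these, *nas-18*, had no count in any library.

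The nematode body is covered by a cuticle that epidermal cells secrete and that the larva replaces at each molt. Before the old cuticle is shed, the epidermis lays down a short-lived apical matrix of zona pellucida domain proteins and lipocalins, then builds the new cuticle, and proteases open the old one. The NAS proteins are secreted zinc metalloproteases of the astacin family, some of which act at this step. The dual oxidase BLI-3 and the heme peroxidase MLT-7 crosslink cuticle collagens through tyrosine residues, and the peroxidasins PXN-1 and PXN-2 belong to the basement membrane, on the other face of the epithelium. Transcripts of many molting genes rise and fall with each larval cycle and are usually low in adults, which no longer molt.

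Whole animals of 4 genotypes were each grown on NGM plates and on plates with 2% glucose and profiled by mRNA sequencing, with 4 libraries in each of the 8 groups and 32 in all. The genotypes were the wild type N2 Bristol (WT), a line overexpressing *pgph-2*, the worm glycerol-3-phosphate phosphatase (*pgph-2 oe*), the *hlh-30(tm1978)* mutant, which lacks part of the gene for the worm homolog of the autophagy regulator TFEB, and the 2 combined (the double mutant). All were fed *E. coli* OP50 at 20 °C after synchronization by bleaching, and the sample labels give the stage as L4 or young adult, whereas the study's methods give young adult. The overexpression rests on a single integrated line that carries *pgph-2* under its own promoter with the pharyngeal marker *myo-2p::mcherry*, which the WT lacks, so that effects of the enzyme, of the marker and of the insertion cannot be told apart. The questions asked of these genes were how *pgph-2* overexpression and loss of *hlh-30* changed their transcripts on each diet and how glucose changed them in each genotype.

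The libraries held 16750042 to 29794842 gene counts, with a median of 19774959.5. *pgph-2* itself lay at 60.7 to 86.6 CPM in *pgph-2 oe* on NGM against 30.5 to 44.3 CPM in WT, and at 105 to 143 against 63.4 to 73.7 CPM on glucose, with no overlap on either diet. *hlh-30* lay at 50.9 to 61.1 CPM in the mutant and at 88.1 to 107 CPM in WT on NGM, so that the mutant libraries still held counts of the gene. Markers of the germ line and of the adult cuticle moved between the groups. Summed over 37 sperm genes, of which 1 was at 0 in 6 of the groups, levels were 1239 to 2182 CPM in WT on NGM, 1622 to 3434 CPM in WT on glucose and 2532 to 4240 CPM in *pgph-2 oe* on NGM, but 215 to 605 CPM in *pgph-2 oe* on glucose, 280 to 961 and 75.8 to 708 CPM in *hlh-30* on NGM and glucose, and 497 to 956 and 733 to 1196 CPM in the double mutant. The same 3 groups had the highest means for 16 oocyte and yolk genes, for the strut collagens *bli-1* and *bli-2* of the adult cuticle, and for the adult collagens *col-7* and *col-19*, whose sum was 8.20 to 161 CPM in those 3 groups and 0.291 to 22.6 CPM in the other 5. Sums of other somatic markers differed less, with group means of 176 to 225 CPM for 3 neuronal genes and 5073 to 7623 CPM for 4 intestinal genes. The means were 4087 to 7282 CPM for 2 muscle genes and 1128 to 3060 CPM for 5 epidermal genes. The epidermal mean was 1128 CPM in *hlh-30* on NGM, against 2213 CPM in WT on NGM. In whole animals, fewer cells of a type and less RNA per cell cannot be told apart, and neither can be told from a difference in age at collection.

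**Figure D1:**
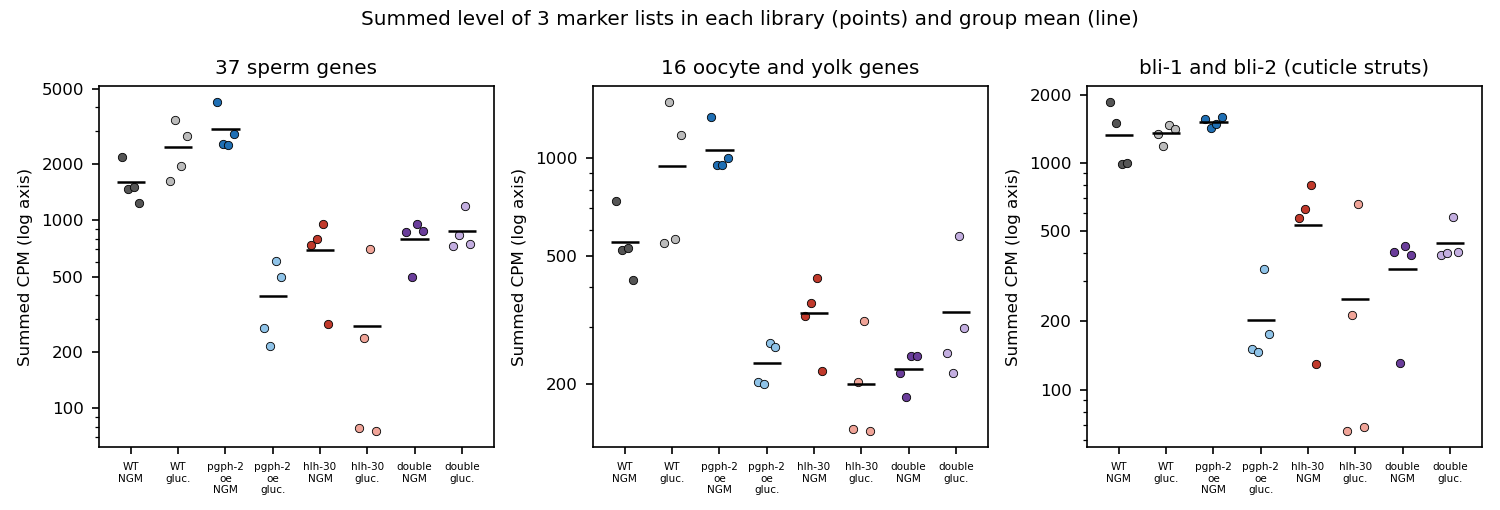
Summed CPM per library (log axis, 1 point per library, 4 per group) of 37 sperm genes, 16 oocyte and yolk genes and the strut collagens *bli-1* and *bli-2*, by group. WT on both diets and *pgph-2 oe* on NGM sit high, with sperm sums of 1239 CPM or more, and *pgph-2 oe* on glucose sits at 605 CPM or less.

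Single libraries also stood apart from their group. *hlh-30* replicate 4 on NGM had a sperm sum of 280 CPM against 740 to 961 CPM in the other 3, and was the highest or lowest of its group for 80.0% of 45 members, against 69.0% of all genes. *hlh-30* replicate 3 on glucose had a sperm sum of 708 CPM against 75.8 to 237 CPM and was extreme for 81.2% of 48 members, against 64.0% of all genes. In WT on glucose, replicate 2 was extreme for 75.5% of the members, against 62.9% of all genes, and replicate 1 for 73.5%, against 57.1%. The group was thus split, and replicate 4 lay on the side of replicate 2 for many members. Only replicates 2 and 4 were also left out as a pair. On NGM, *pgph-2 oe* replicate 1 was extreme for 80.0% of members, near the 78.8% of all genes. Double mutant replicate 2 on NGM was extreme for 72.3%, against 55.0%. Calls that were lost with 1 library left out are given with the comparison. No 2 libraries of a group agreed within sampling noise, so that none appeared to be a library that was deposited again.

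On a scale corrected for gene length (FPKM, which is CPM divided by gene length in kilobases), the most abundant members in WT on NGM were those of the apical matrix. The lipocalin gene *lpr-3* had a mean of 309 FPKM, the zona pellucida genes *noah-2* and *noah-1* 293 and 229 FPKM, *mlt-8* 276 FPKM, and the lipocalin genes *lpr-4*, *lpr-5* and *lpr-6* 262, 188 and 169 FPKM. *lpr-3* to *lpr-6* lie side by side within 9.38 kb on chromosome X (11057436 to 11066811, WBcel235). *mlt-10*, which encodes a secreted proline-rich protein of the epidermis, followed at 148 FPKM and *mlt-11*, a Kunitz-type protease inhibitor gene, at 122 FPKM. The highest astacin was *nas-37*, a protease that opens the old cuticle at ecdysis, at 60.2 FPKM. Per length, *nas-37* thus lay below each of the matrix genes named above.

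**Figure D2:**
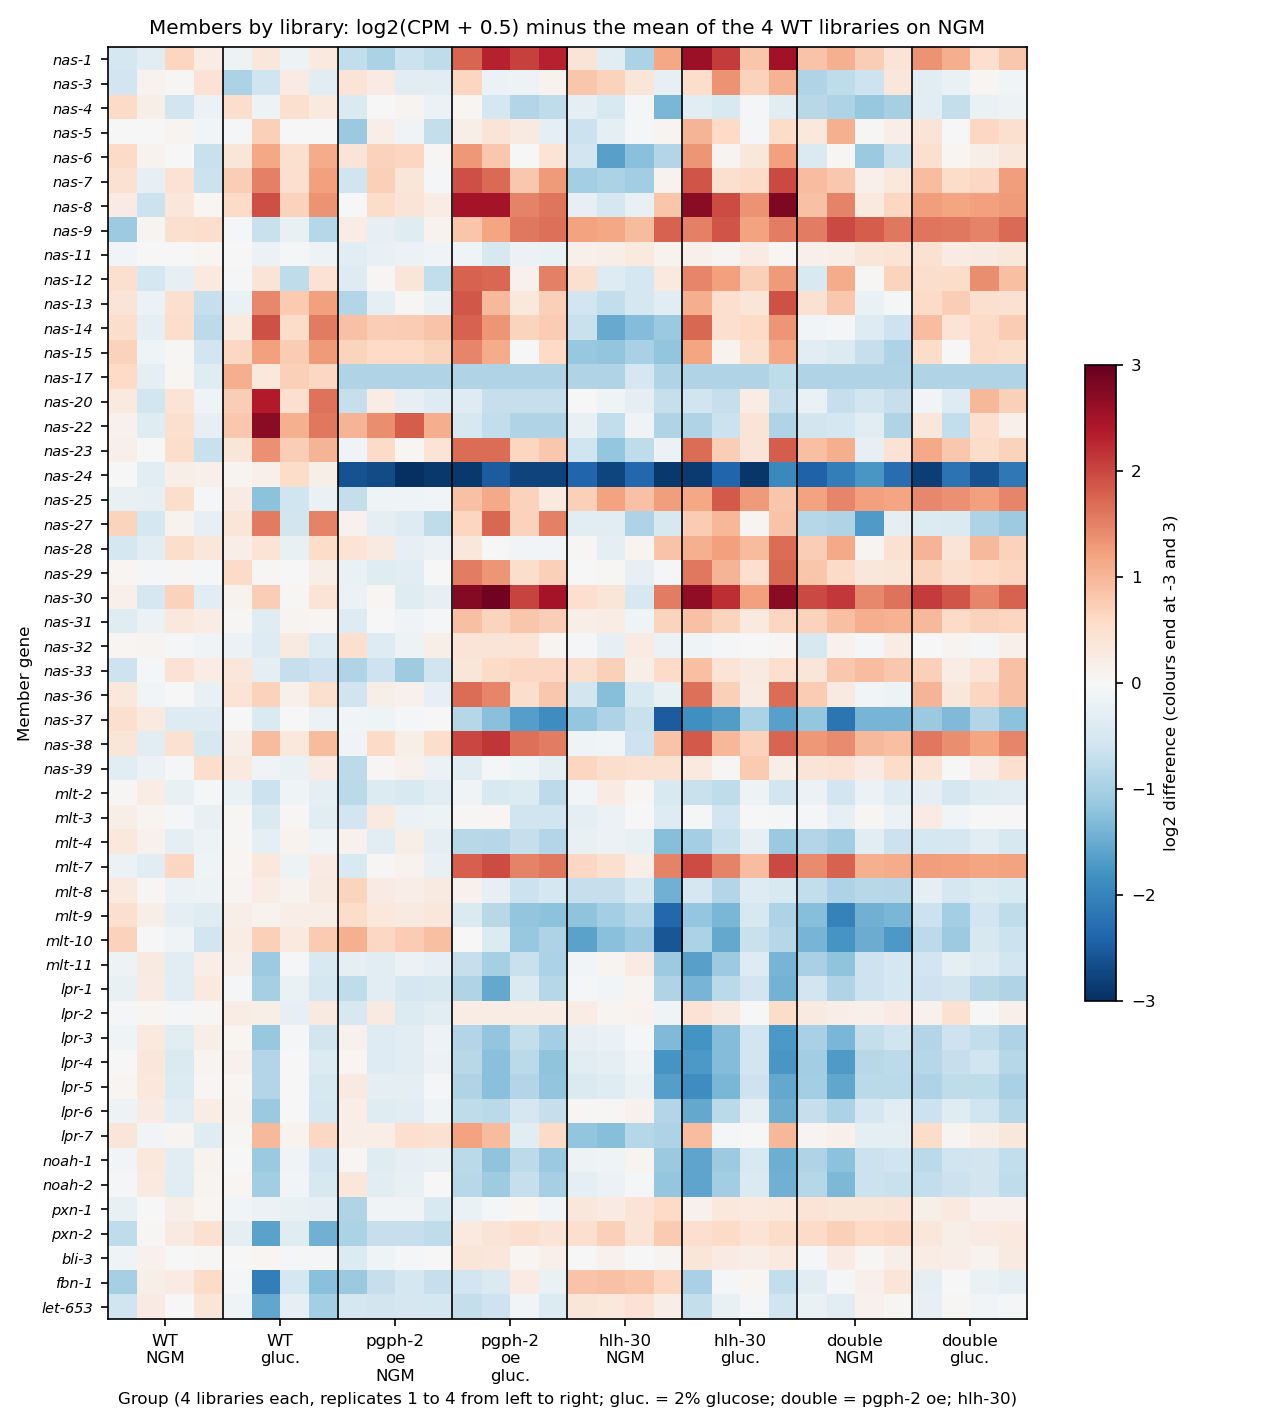
Heat map of the 52 members with a mean of at least 1 CPM in some group (rows) in all 32 libraries (columns, by group), coloured by log2(CPM + 0.5) minus the mean of the 4 WT libraries on NGM. In all 12 libraries of *pgph-2 oe* on glucose and of the double mutant, *nas-30* and *mlt-7* are above and *nas-37* and *mlt-9* below the 4 WT libraries on NGM.

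Differences were tested with edgeR's quasi-likelihood test across all genes that passed a filter on low counts, and a gene was called when its Benjamini-Hochberg adjusted P was at most 0.05 and its log2 fold change at least 1 in size. Of the 58 members, 53 passed the filter in at least 1 of 10 comparisons between groups, 48 passed in all 10, and 5 in none. Because the filter also passes a gene through the group in which it is high, counts below are of the members tested and not of all members. In the 10 comparisons 35 members were called at least once, 17 only upward, 11 only downward and 7 in both directions, and 18 were tested and never called. The share of all genes called at least once was not counted, so these numbers cannot be read against a background. The comparisons share groups, so that calls in 2 of them are not independent where the same libraries serve both.

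**Figure D3:**
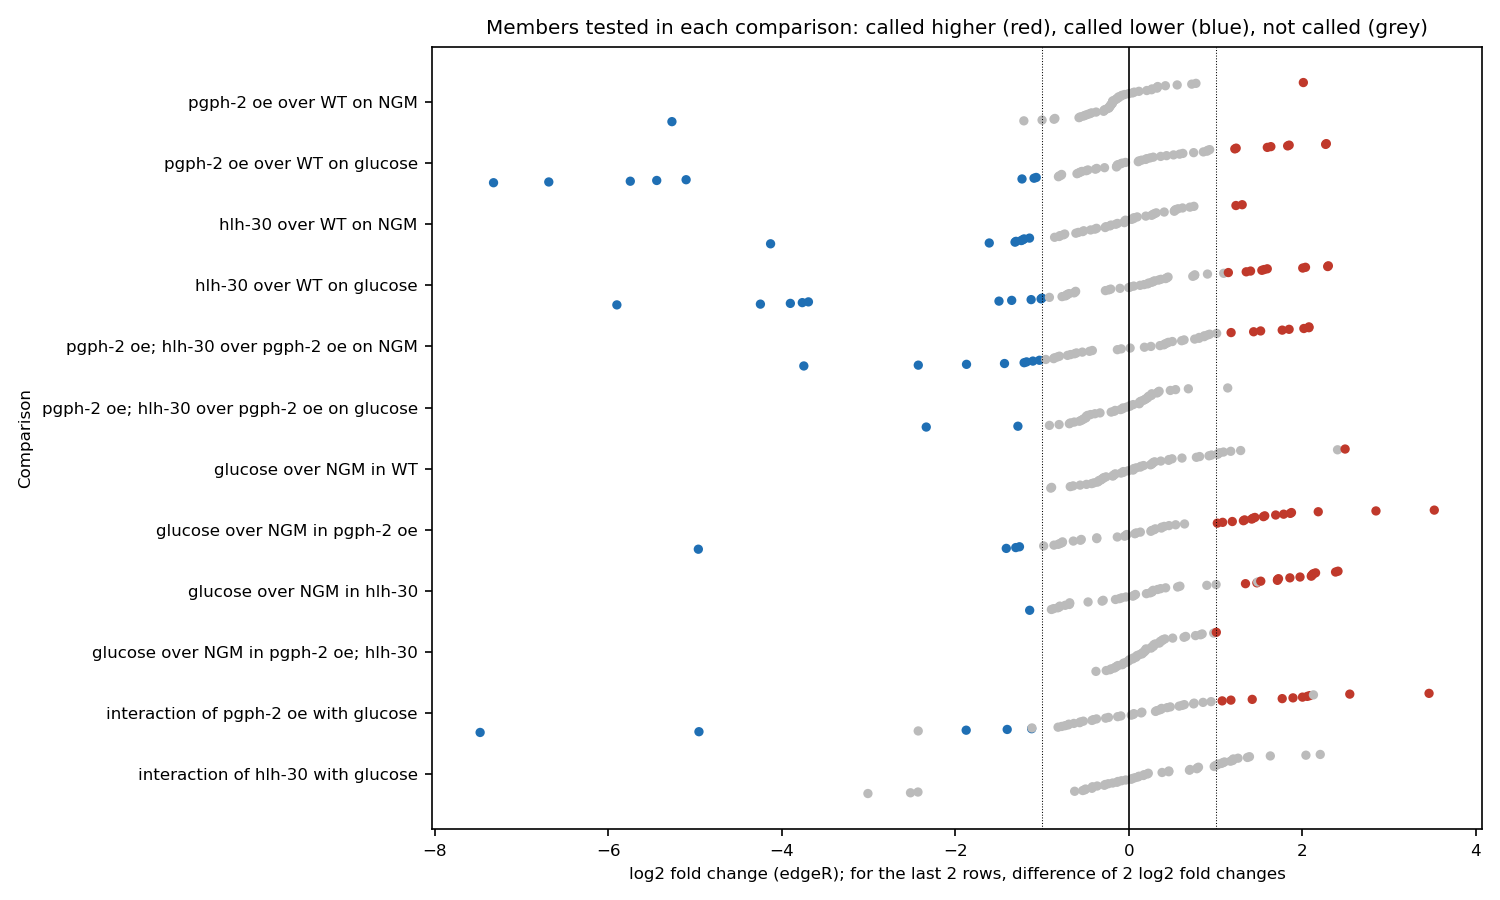
Log2 fold changes (x axis, edgeR) of the members tested, 1 point per member, in the 10 comparisons between groups and the 2 interactions (rows), with members called higher in red, called lower in blue and not called in grey; dotted lines mark the fold limit of 1. There are 2 coloured points for *pgph-2 oe* over WT on NGM and 1 for glucose in WT, but 21 for glucose in *pgph-2 oe*.

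On NGM, *pgph-2* overexpression left most of these genes near the WT. Of 50 members tested 1 was upregulated, where 1.7% of all genes were, and 1 was downregulated, where 1.18% were, and the median log2 fold change of the members was -0.19, against 0.00 for all genes tested. The gene that fell was the astacin *nas-24* (chromosome V, 13769669 to 13771326), at -5.27 ± 0.50 on the log2 scale (SE, adjusted P = 0.000106), and it is described below with the other astacins of few reads. The gene that rose was *nas-22*, by 2.01 ± 0.44 (adjusted P = 0.0189), a call lost without WT replicate 2 or 4 or *pgph-2 oe* replicate 3 (log2 fold changes of 1.76 to 2.42 over all fits that left out 1 library). *pxn-2*, the peroxidasin gene required in embryonic epidermis, was below the fold limit at -0.86 ± 0.22 (adjusted P = 0.0424). Without WT replicate 1, 5 members were downregulated in place of 1, and over all genes 234 in place of 180. In this comparison 10 sperm genes and 7 oocyte and yolk genes were called higher in *pgph-2 oe*, and their part in the result was not tested.

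On glucose, 8 of 53 members were higher and 8 lower in *pgph-2 oe* than in WT, where 5.44% and 13.7% of all genes were called, and the member median was -0.08, against 0.02 for all genes. The upregulated share of the members was thus above the background. The downregulated share includes 5 astacins that passed the filter only through the WT libraries, so it cannot be read against the background. Among the genes that fell was *mlt-10* (chromosome II, 546705 to 552026), at 382, 535, 400 and 561 CPM in the WT libraries on glucose and at 323, 245, 148 and 171 CPM in those of *pgph-2 oe*. Every *pgph-2 oe* library was below every WT library, and the log2 fold change was -1.09 ± 0.23 (adjusted P = 0.00418). This call was lost without WT replicate 4 or *pgph-2 oe* replicate 3 or 4 and without WT replicates 2 and 4 together, with -0.79 and an adjusted P of 0.0521 in the last case. *nas-37* (chromosome X, 9944848 to 9949060) was at 148, 109, 146 and 130 CPM in WT and at 80.5, 61.1, 46.6 and 40 CPM in *pgph-2 oe*, again without overlap, and fell by 1.23 ± 0.19 on the log2 scale (adjusted P = 0.000803). *mlt-9*, named for the molting defect seen on its loss, was at 205 to 218 CPM in WT and at 80.8 to 140 CPM in *pgph-2 oe* and fell by 1.07 ± 0.15 (adjusted P = 0.000457), below the fold limit without *pgph-2 oe* replicate 3 or 4. The other 5 genes that fell, *nas-17*, *nas-19*, *nas-20*, *nas-22* and *nas-24*, are astacins of few reads.

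Among the genes that rose on glucose in *pgph-2 oe* was *mlt-7* (chromosome II, 4392950 to 4404856), the peroxidase partner of BLI-3. Its levels were 36.1, 42.7, 30.7 and 40.9 CPM in WT and 120, 136, 97.2 and 104.2 CPM in *pgph-2 oe*. The lowest *pgph-2 oe* library lay above the highest WT library, and the gene rose by 1.60 ± 0.13 on the log2 scale (adjusted P = 3.04e-05). The call held in each fit that left out 1 library. The astacin *nas-30* (chromosome I, 942257 to 947711) was at 7.89, 12.5, 7.38 and 9.72 CPM in WT and at 51.8, 57.5, 30.9 and 43.1 CPM in *pgph-2 oe*. This was the largest rise of the 8, by 2.28 ± 0.22 (adjusted P = 6.7e-05). *nas-1* (chromosome III, 13406000 to 13409286) rose nearly as far, by 2.27 ± 0.23, from 1.45 to 2.29 CPM in WT to 6.80 to 10.3 CPM. *nas-9* was at 9.45, 5.97, 8.22 and 5.15 CPM in WT and at 17.8, 22.6, 30.1 and 32 CPM in *pgph-2 oe*, and rose by 1.83 ± 0.23 (adjusted P = 0.000261). The remaining 4 were *nas-38*, a protease gene linked to the sleep that accompanies each molt, at 1.22, *pxn-2* at 1.24, *nas-25* at 1.64 and *nas-12* at 1.85. The calls of *pxn-2* and *nas-25* were lost without WT replicates 2 and 4 together (0.77, and 1.27 with an adjusted P of 0.0922), while *lpr-4* and *lpr-5* were then called lower at -1.05 and -1.06 and *nas-8* and *nas-27* higher at 1.55 and 1.46. Those of *nas-25* and *nas-12* were each lost in 4 of 8 fits that left out 1 library (1.28 to 2.14 and 1.53 to 2.16), and *nas-25* overlaps a gene on the opposite strand with more reads. In the same comparison 35 of 35 sperm genes tested, 11 of 16 oocyte and yolk genes and both strut collagen genes were called lower, and their part in these results was not tested.

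**Figure D4:**
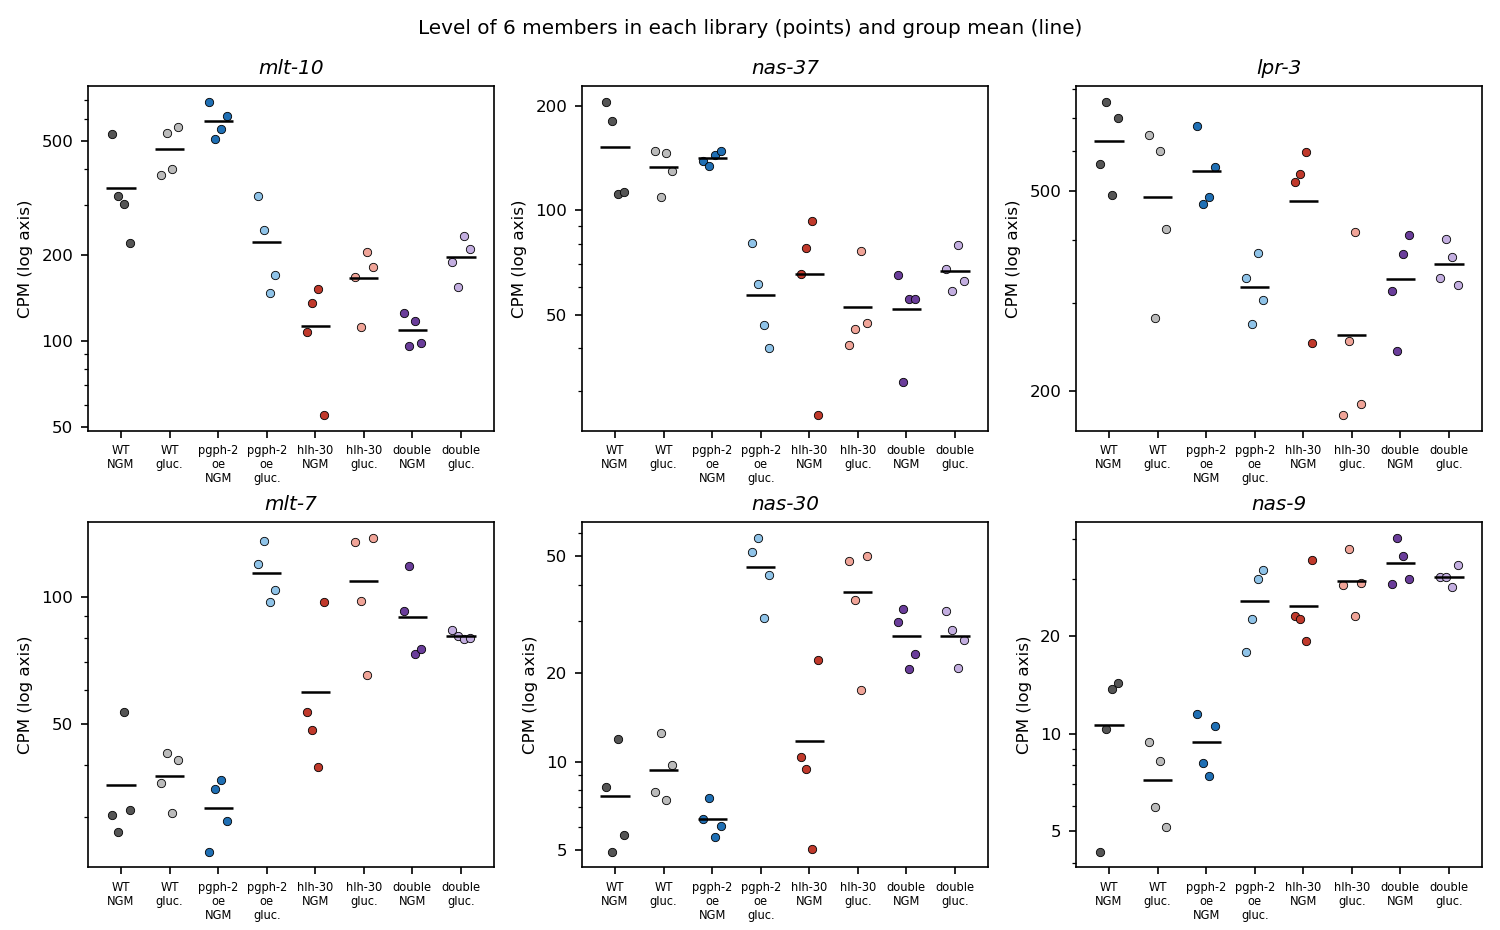
CPM per library (log axis, 1 point per library) of *mlt-10*, *nas-37*, *lpr-3*, *mlt-7*, *nas-30* and *nas-9* in the 8 groups. *mlt-7* is at 97.2 to 136 CPM in *pgph-2 oe* on glucose against 24.8 to 36.8 CPM in the same genotype on NGM, and *mlt-10* at 148 to 323 against 508 to 689 CPM.

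Whether the overexpression acted differently on the 2 diets was tested as the interaction of genotype with glucose, which is the log2 fold change of *pgph-2 oe* over WT on glucose minus that on NGM. It was called above 0 for 10 of 53 members and below 0 for 5, where 6.27% and 14.2% of all genes were called, with medians of 0.14 for the members and 0.02 for all genes. Above 0 were the astacins *nas-1* at 3.46 ± 0.44, *nas-30* at 2.55 ± 0.37, *nas-25* at 2.06, *nas-9* at 2.00, *nas-33* at 1.89, *nas-29* at 1.18 and *nas-31* at 1.08, with *pxn-2* at 2.09, *mlt-7* at 1.77 ± 0.27 and *fbn-1*, which encodes a fibrillin-like matrix protein, at 1.42. Below 0 were *nas-22* at -7.48, *nas-20* at -4.95, *mlt-10* at -1.87 ± 0.36, *mlt-9* at -1.40 and *nas-37* at -1.12. The sign gives the direction of the difference and not the size of either response. *mlt-7* and *nas-30* were near 0 on NGM (-0.19 and -0.28) and rose on glucose, and *nas-37* was near 0 on NGM (-0.12) and fell on glucose. Opposite signs on the 2 diets were found, among others, for *mlt-10*, *nas-1* and *pxn-2* (0.77 and -1.09, -1.21 and 2.27, -0.86 and 1.24 on NGM and glucose). *nas-22* was called on both diets, at 2.01 on NGM and -5.44 on glucose. The signs also differed for *nas-33* and for *fbn-1* (-0.85 and 0.59), which were called on neither diet. Of the interaction calls 9 held in each fit that left out 1 library. *fbn-1*, which shares its locus with a gene on the other strand, lost its call in 5 of 16 such fits (1.17 to 1.77), *nas-37* in 3, *nas-25* and *nas-31* in 2 and *nas-20* and *nas-29* in 1. Without WT replicates 2 and 4 on glucose together, 5 of the calls were lost, those of *fbn-1* (0.91, adjusted P = 0.131), *nas-20* (-3.64, 0.095), *nas-25* (1.66, 0.0789), *nas-29* (1.08, 0.0542) and *nas-31* (0.98, 0.03), while *nas-8*, *nas-12*, *nas-27* and *nas-38* were then called above 0.

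In *hlh-30* mutants on NGM, 2 of 49 members were upregulated and 8 downregulated in comparison to WT, where 1.2% and 5.75% of all genes were called, with medians of -0.15 and 0.00. *mlt-10* was at 532, 323, 303 and 221 CPM in WT and at 108, 136, 153 and 55.1 CPM in *hlh-30*. All 4 mutant libraries were below all 4 of WT, and the fall of 1.61 ± 0.33 on the log2 scale (adjusted P = 0.014) held in each fit that left out 1 library, as did those of *nas-24* and *lpr-7*. *lpr-7*, a lipocalin gene outside the cluster on chromosome X, fell by 1.14 from 8.20 to 13.8 CPM in WT to 4.09 to 5.64 CPM. *mlt-9* fell by 1.30, *nas-37* by 1.22 ± 0.35 (adjusted P = 0.0426), and the astacins *nas-14*, *nas-6*, one of the proteases of the pharyngeal grinder, and *nas-15* by 1.31, 1.24 and 1.21. These calls were less stable than that of *mlt-10*. *nas-37* lost its call in 6 of 8 fits that left out 1 library (falls of 0.96 to 1.43), *nas-14* and *nas-6* in 5 each, *mlt-9* in 3 and *nas-15* without WT replicate 1. *nas-9* and *nas-25* rose by 1.23 and 1.31, and were lost in 5 and 3 such fits. Of these calls, *nas-37* and *nas-9* were lost without *hlh-30* replicate 4. Without WT replicate 1, 3 members were downregulated and none upregulated, and over all genes 431 and 103 in place of 864 and 180. Among markers, 25 of 35 sperm genes, 5 of 16 oocyte and yolk genes and 1 of the 2 strut collagens were called lower here, and their part was not tested.

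On glucose the *hlh-30* mutant differed from WT in more members, with 10 of 53 upregulated and 10 downregulated, where 5.89% and 14.7% of all genes were called, and a member median of 0.13 against 0.02. The downregulated share again includes 5 astacins that passed the filter only through the WT libraries, so it cannot be read against the background. *nas-30* was at 48.1, 35.4, 17.6 and 50.1 CPM in the mutant, all above the highest WT value on glucose of 12.5 CPM, and rose by 2.00 ± 0.33 (adjusted P = 0.00245). *nas-9* was at 28.7, 37.2, 23.1 and 29.2 CPM, all above the highest WT value of 9.45 CPM, and rose by 2.04 ± 0.21. *mlt-7* was at 135, 98.1, 65.3 and 138 CPM and rose by 1.53 ± 0.23 (adjusted P = 0.00188). For *nas-30*, *nas-9* and *mlt-7* the lowest mutant library was replicate 3, which stood apart in its sperm sum. The others that rose were *nas-1* by 2.30, *nas-25* by 2.29, *nas-12* by 1.60, *nas-3* by 1.56, *nas-28* by 1.40, *pxn-2* by 1.35 and *nas-29* by 1.15. Without WT replicates 2 and 4 together the calls of *pxn-2* (0.86, under the fold limit), *nas-3* (1.40, adjusted P = 0.101) and *nas-29* (1.04, adjusted P = 0.113) were lost, while *nas-8* was then called higher at 1.75 and *lpr-3* and *mlt-11* lower at -1.28 and -1.12. With 1 library left out, *nas-12* lost its call in 2 of 8 fits (1.28 to 1.84) and *nas-29* in 1, without *hlh-30* replicate 4. *mlt-10* fell by 1.5 ± 0.20, *nas-37* by 1.35 ± 0.19 and *mlt-9* by 1.13 ± 0.17, each in all fits that left out 1 library. The lipocalins *lpr-4* and *lpr-5* fell by 1.01 and 1.00, at the fold limit, and each lost the call in 5 of 8 such fits (falls of 0.87 to 1.33 and 0.84 to 1.30). The other 5 that fell were the astacins of few reads *nas-17*, *nas-24*, *nas-20*, *nas-19* and *nas-22*, of which *nas-22* lost its call without WT replicate 2 or *hlh-30* replicate 2, and *nas-20* and *nas-22* without WT replicates 2 and 4 together. Here 35 of 35 sperm genes, 13 of 16 oocyte and yolk genes and both strut collagens were called lower. The values of *pgph-2 oe* and *hlh-30* on glucose stand side by side against the same WT libraries, and the likeness of their lists is therefore not a separate result.

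The interaction of *hlh-30* with glucose was called for 0 of 53 members in either direction by edgeR, where 0.284% of all genes were called above 0 and 0.239% below it. At an unadjusted P under 0.05 there were 9 of 53 members, against 3690 of 15872 genes tested. DESeq2 called 2 members, *nas-36* at 1.36 and *nas-29* at 1.2. Without *hlh-30* replicate 4 on NGM and replicate 3 on glucose together, a choice made after the data were seen, 10 members were called above 0 and 5 below it, where 2.91% and 10.4% of all genes were. Above 0 were *nas-1* at 2.90, *nas-30* at 2.13, *nas-36*, a protease of ecdysis, at 1.73, *nas-8* at 1.71, *nas-7*, a protease of the pharyngeal grinder, at 1.70, *nas-23* at 1.62, *lpr-7* and *nas-29* at 1.40, *mlt-7* at 1.31 and *nas-38* at 1.27. Below 0 were *nas-20* at -5.94, *nas-22* at -5.32, *mlt-11* at -1.14, *lpr-4* at -1.08 and *lpr-3* at -1.06. The number of calls for this interaction thus changed with these 2 libraries. Each sat nearer to the other diet, so that leaving them out widens the difference between the diets. The fit without them therefore cannot decide whether the interaction holds for these members.

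Loss of *hlh-30* in the overexpressing line was examined by comparing the double mutant with *pgph-2 oe*. On NGM 8 of 49 members were upregulated and 8 downregulated, where 7.58% and 10.7% of all genes were called, with medians of 0.25 and 0.01. *mlt-10* was at 689, 508, 553 and 613 CPM in *pgph-2 oe* and at 125, 96.3, 117 and 98.9 CPM in the double mutant. The groups were widely separated, and the fall of 2.43 ± 0.14 on the log2 scale (adjusted P = 4.34e-07) was the largest of any member outside the astacins of few reads. *mlt-9* fell by 1.87 ± 0.15, *nas-37* by 1.43 ± 0.17, *nas-15* by 1.21, *mlt-8* by 1.18, *nas-14* by 1.11, *nas-6* by 1.03 and *nas-22* by 3.75. *nas-30* was at 6.36, 7.53, 5.53 and 6.05 CPM in *pgph-2 oe* and at 29.8, 33, 20.7 and 23.3 CPM in the double mutant, again without overlap, and rose by 2.08 ± 0.17 (adjusted P = 3.87e-06). *nas-1* rose by 2.08 ± 0.27, *nas-25* by 2.02, *nas-9* by 1.85 ± 0.17, *nas-33* by 1.77, *mlt-7* by 1.52 ± 0.17, *pxn-2* by 1.44 ± 0.10 and *nas-31* by 1.18. *nas-6* lost its call in 4 of 8 fits that left out 1 library (falls of 0.85 to 1.29), *nas-14* in 1, and the other calls held in all 8, double mutant replicate 2 included. In this comparison 34 of 35 sperm genes, 16 of 16 oocyte and yolk genes and both strut collagens were called lower. Of the 8 members upregulated here, 6 (75.0%) were also among the 10 (60%) upregulated in *hlh-30* against WT on glucose, a comparison that shares no library with it, namely *mlt-7*, *nas-1*, *nas-25*, *nas-30*, *nas-9* and *pxn-2*. Of the 8 downregulated, 4 (50%) were among the 10 (40%) of the other comparison, *mlt-10*, *mlt-9*, *nas-22* and *nas-37*, and none moved in opposite directions. Over all genes the same overlaps were 576 upward (50% and 63.9% of the lists) and 1200 downward (74% and 53.2%), with 15 in opposite directions, so that the members' downward shares were below those of all genes, and their upward share was above for the first list and below for the second.

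On glucose the double mutant and *pgph-2 oe* differed in few of these genes. None of 48 members was upregulated by edgeR and 2 were downregulated, where 2.5% and 0.998% of all genes were called. At an unadjusted P under 0.05 in either direction there were 19 members, against 4442 of 15031 genes tested. DESeq2 called 1 member higher, *nas-28* at 1.15. *nas-27*, an astacin gene on chromosome II, was at 3.54, 7.97, 3.65 and 6.84 CPM in *pgph-2 oe* and at 1.45, 1.40, 0.865 and 0.702 CPM in the double mutant, without overlap, and fell by 2.33. *nas-1* was at 6.80 to 10.3 against 2.60 to 5.03 CPM and fell by 1.28 ± 0.23 (adjusted P = 0.00522). *mlt-10* differed by -0.20 (95% interval -0.62 to 0.21) and *nas-37* by 0.20 (-0.17 to 0.56). *mlt-7* was lower in the double mutant by 0.53 ± 0.10 and *nas-30* by 0.80 ± 0.19 on the log2 scale, both under the fold limit. Here the markers moved the other way, with 22 of 35 sperm genes, 4 of 16 oocyte and yolk genes and both strut collagens called higher in the double mutant.

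Few of these genes were called for glucose in WT. Of 31 *nas* genes tested 23 were above 0, with a median of 0.30, where 7935 of 15271 genes tested were above 0. Of 53 members 1 was upregulated and 0 were downregulated by edgeR, where 0.596% and 0.583% of all genes were called. At an unadjusted P under 0.05 there were 13 members, against 3681 of 15271 genes tested. DESeq2 called 5 upward and 0 downward, adding *nas-20*, *nas-8*, *nas-14* and *nas-7* at 2.44, 1.29, 1.18 and 1.03. The 1 called by edgeR was *nas-22*, by 2.49 (adjusted P = 0.049), lost in 6 of 8 fits that left out 1 library (1.80 to 2.91) and without replicates 2 and 4 on glucose together (1.47, adjusted P = 0.408). For *mlt-7* the difference was 0.09 (95% interval -0.31 to 0.48), for *nas-30* 0.30 (-0.26 to 0.85) and for *mlt-10* 0.46 (-0.01 to 0.92). Several members were split within WT on glucose. The fibrillin-like *fbn-1* was at 325 and 236 CPM in replicates 1 and 3 and at 79.8 and 142 CPM in replicates 2 and 4. *mlt-11* was at 1317 and 1158 CPM in replicates 1 and 3 and at 552 and 859 CPM in replicates 2 and 4, whereas *nas-14* was at 11.2 and 13.4 against 35.2 and 27.5 CPM. The matrix genes were thus low and the astacin high in the same pair of libraries. That pair, replicates 2 and 4, was also apart in its markers, with sperm sums of 3434 and 2816 CPM against 1622 and 1939 CPM, oocyte and yolk sums of 1489 and 1179 against 545 and 562 CPM, and sums of *col-7* and *col-19* of 161 and 113 against 41.5 and 49.4 CPM. Between the diets no marker of sperm, oocyte, yolk or strut was called, but 35 of 35 sperm genes were above 0 on glucose, with a median of 0.63 and 27 at an unadjusted P under 0.05. Of 16 oocyte and yolk genes 15 were above 0, with a median of 0.83 and 12 at an unadjusted P under 0.05, and *col-7* and *col-19* had a median of 2.19. The part of the markers in these values was not tested.

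In *pgph-2 oe*, glucose raised 17 of 49 members and lowered 4, where 6.65% and 13.1% of all genes were called, with a median of 0.29 for the members and 0.01 for all genes. Of 27 *nas* genes tested 15 rose and 2 fell, with a median of 1.08. *mlt-7* went from 24.8, 35, 36.8 and 29.4 CPM on NGM to 120, 136, 97.2 and 104.2 CPM on glucose, a rise of 1.86 ± 0.15 (adjusted P = 7.2e-06). *nas-1* was at 0.803, 0.631, 0.892 and 0.792 CPM on NGM and at 6.80, 10.3, 8.53 and 10.3 CPM on glucose. No pair of libraries overlapped, and the rise of 3.52 ± 0.24 was the largest upward change of any member. *nas-30* rose by 2.85 ± 0.20, *nas-12* by 2.18, *nas-8* by 1.88, *nas-27* by 1.78, *nas-13* by 1.69, *nas-38* by 1.57, *nas-33* by 1.55, *nas-9* by 1.45, *nas-29* by 1.43, *nas-25* by 1.42, *nas-7* by 1.33, *nas-36* by 1.32, *pxn-2* by 1.19, *nas-23* by 1.08 and *nas-31* by 1.02. *mlt-10* fell by 1.41 ± 0.22, *nas-37* by 1.30 ± 0.18, *mlt-9* by 1.26 ± 0.17 and *nas-22* by 4.96. The 2 proteases of ecdysis thus moved in opposite directions, since *nas-36* was at 8.71 to 15.3 CPM on NGM and 19.7 to 44.0 CPM on glucose while *nas-37* went from 134 to 148 CPM to 40 to 80.5 CPM. Only *nas-23* and *nas-31* lost their calls when 1 library was left out. All 35 sperm genes tested, 16 of 16 oocyte and yolk genes and both strut collagens fell in this comparison, and their part in it was not tested.

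In *hlh-30* mutants, glucose raised 15 of 48 members and lowered 1, where 3.54% and 0.936% of all genes were called, with medians of 0.28 and 0.00. Of 26 *nas* genes tested 14 rose, with a median of 1.48. *nas-14* was at 5.55, 2.82, 3.37 and 3.88 CPM on NGM and at 31.2, 13.1, 14 and 23.5 CPM on glucose, a rise of 2.41 ± 0.33 (adjusted P = 0.00342) with no overlap. *nas-15* (chromosome X, 777719 to 780514) was at 19.1, 18.3, 21.3 and 18.3 CPM on NGM and at 96.8, 45.2, 59.6 and 95.2 CPM on glucose, and rose by 1.97. *nas-8* was at 4.20, 3.45, 4.32 and 9.51 CPM on NGM, where the last is the replicate that stood apart, and at 36.2, 21.1, 13.8 and 38.6 CPM on glucose, and rose by 2.38. The others were *nas-7* by 2.15, *nas-23* by 2.13, *nas-1* by 2.12, *nas-13* by 2.11, *nas-6* by 2.10, *nas-36* by 1.86, *lpr-7* by 1.73, *nas-30* and *nas-12* by 1.71, *nas-27* by 1.52, *nas-29* by 1.48 and *nas-38* by 1.34, and *fbn-1* fell by 1.14. With 1 library left out, *nas-1* (1.81 to 2.72), *nas-30* (1.47 to 2.23) and *nas-38* (1.15 to 1.74) lost theirs in 6 of 8 fits, *nas-12* in 5, *nas-7* in 4, and *nas-13* and *fbn-1* in 1. Without replicate 2 on NGM 9 members were called higher, and over all genes 307 in place of 530. Between *pgph-2 oe* and *hlh-30*, which share no library, 11 members rose on glucose in both, which is 64.7% of the first list and 73.3% of the second, and none was called in opposite directions. Over all genes 220 rose in both, or 22% and 41.5% of the lists, and 18 were called in opposite directions. Of the 11 members, *nas-1*, *nas-7*, *nas-12*, *nas-13*, *nas-30* and *nas-38* lost the call in *hlh-30* in some fit that left out 1 library. No marker of sperm, oocyte, yolk or strut was called here, but 34 of 34 sperm genes tested were below 0, with a median log2 fold change of -1.30 and 5 at an unadjusted P under 0.05, and the strut collagens had a median of -1.03. Their part in the result was not tested.

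Left out together, *hlh-30* replicate 4 on NGM and replicate 3 on glucose changed this comparison, with 18 of 48 members higher and 9 lower, where 6.06% and 10.4% of all genes were. The genes that were then lower were those of the apical matrix. *mlt-11* fell by 1.39, *lpr-3* by 1.38, *fbn-1* by 1.35, *lpr-4* by 1.29, *noah-1* and *lpr-6* by 1.26, *lpr-5* by 1.21, *lpr-1* by 1.16 and *noah-2* by 1.14. In the single libraries *lpr-3* was at 521, 542, 599 and 249 CPM on NGM and at 179, 251, 415 and 188 CPM on glucose, so that replicate 4 on NGM and replicate 3 on glucose each sat nearer to the other diet. Leaving out such libraries widens the difference by itself, so the added calls are no separate evidence of a fall. With all 8 libraries its difference was -0.87 ± 0.32 (adjusted P = 0.106). *mlt-7* rose by 1.44 without them, against 0.90 ± 0.32 (adjusted P = 0.0959) with them.

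In the double mutant, glucose raised 1 of 48 members and lowered 0, where 1.2% and 0.635% of all genes were called. The median was 0.18 for the members and 0.01 for all genes, and 13 members were at an unadjusted P under 0.05, against 4030 of 15269 genes tested. DESeq2 also called 1 and 0. *nas-15* was at 33.5, 31.8, 25.9 and 21.9 CPM on NGM and at 62.1, 42.5, 62.8 and 61.5 CPM on glucose. Its rise of 1.01 was at the fold limit, and the call was lost in 5 of 8 fits that left out 1 library (0.91 to 1.12). *mlt-10* was higher on glucose by 0.85 ± 0.11 (adjusted P = 0.000991) and *mlt-9* by 0.77 ± 0.14, both under the fold limit. *nas-30* differed by 0.00 (95% interval -0.31 to 0.32), at 20.9 to 32.5 CPM on glucose and 20.7 to 33 CPM on NGM. Among the markers 3 of 15 oocyte and yolk genes tested were called higher on glucose here, and no sperm or strut gene was called.

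Several astacin genes had few reads, and their pattern is best seen in the counts. *nas-24* was at 3.68, 2.80, 4.15 and 4.10 CPM in WT on NGM and at 3.90, 4.08, 5.55 and 4.16 CPM in WT on glucose. In the other 24 libraries it was at 0 to 0.731 CPM, so that all 8 WT libraries lay above all others. Summed counts were 330 in WT and 7 in *pgph-2 oe* on NGM, and 352 and 9 on glucose. Per normalized library total, the ratio was 41 on NGM (95% counting interval 19.7 to 103) and 36 on glucose (18.8 to 79.4). Against *hlh-30* the ratios were 17.8 and 20.4 on the 2 diets and against the double mutant 8.23 and 17.2. The differences of *nas-24* were called in all 4 comparisons with WT, by falls of 5.27, 5.10, 4.13 and 4.25 on the log2 scale for *pgph-2 oe* and *hlh-30* on NGM and glucose, and all 4 held in each fit that left out 1 library. The gene was thus low on both diets in all 3 of the non-wild-type genotypes, and the cause was not tested.

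*nas-17* and *nas-19* lie next to each other on chromosome V (11398916 to 11402690), in a row of 4 astacin genes from *nas-16* to *nas-19* within 10.8 kb. *nas-17* had 45 counts in WT on NGM and 82 in WT on glucose, in each of the 8 libraries, and 0 counts in *pgph-2 oe* and in the double mutant on both diets, with 3 and 1 in *hlh-30*. Against a floor of 3 counts over the group, it was at least 13-fold higher in WT than in *pgph-2 oe* on NGM and at least 25.2-fold higher on glucose, and at least 14.6-fold and 28.0-fold higher than in the double mutant. *nas-19* had 53 counts in WT on glucose and 0 in *pgph-2 oe*, hence at least 16.3-fold higher in WT, and 36 in WT on NGM against 0 in *hlh-30*, at least 9.73-fold higher. *nas-16* had 8 counts in 2 WT libraries on NGM and none in any other library. Both *nas-17* and *nas-19* were called lower in *pgph-2 oe* and in *hlh-30* on glucose, and the fitted changes of -7.32 and -5.90, and of -6.69 and -3.76, depend on the prior count and are no bound.

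The row *nas-20* to *nas-22*, within 7.15 kb of chromosome V (11470800 to 11477951), had its highest group means in WT on glucose. *nas-22* was at 1.14, 5.56, 1.47 and 2.29 CPM in WT on glucose, at 1.38, 1.94, 2.81 and 1.47 CPM in *pgph-2 oe* on NGM, and at 0 to 0.820 CPM in the other 24 libraries. On glucose it had 218 counts in WT and 4 in *pgph-2 oe*, a ratio of 50.2 (19.3 to 186), and in *pgph-2 oe* 153 counts on NGM against those 4, a ratio of 36 (13.8 to 134). *nas-20* had 148 counts in WT on glucose and 2 in *pgph-2 oe*, a ratio of 68.1 (18.5 to 568), and 31 and 15 on NGM. For both genes WT replicate 2 on glucose held the highest value, at 3.68 CPM for *nas-20*. Without WT replicates 2 and 4 the falls of *nas-22* and *nas-20* in *hlh-30* on glucose were no longer called, at -2.67 (adjusted P = 0.157) and -2.60 (adjusted P = 0.156). These intervals cover counting error only, and *nas-22* overlaps another gene on its own strand.

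**Figure D5:**
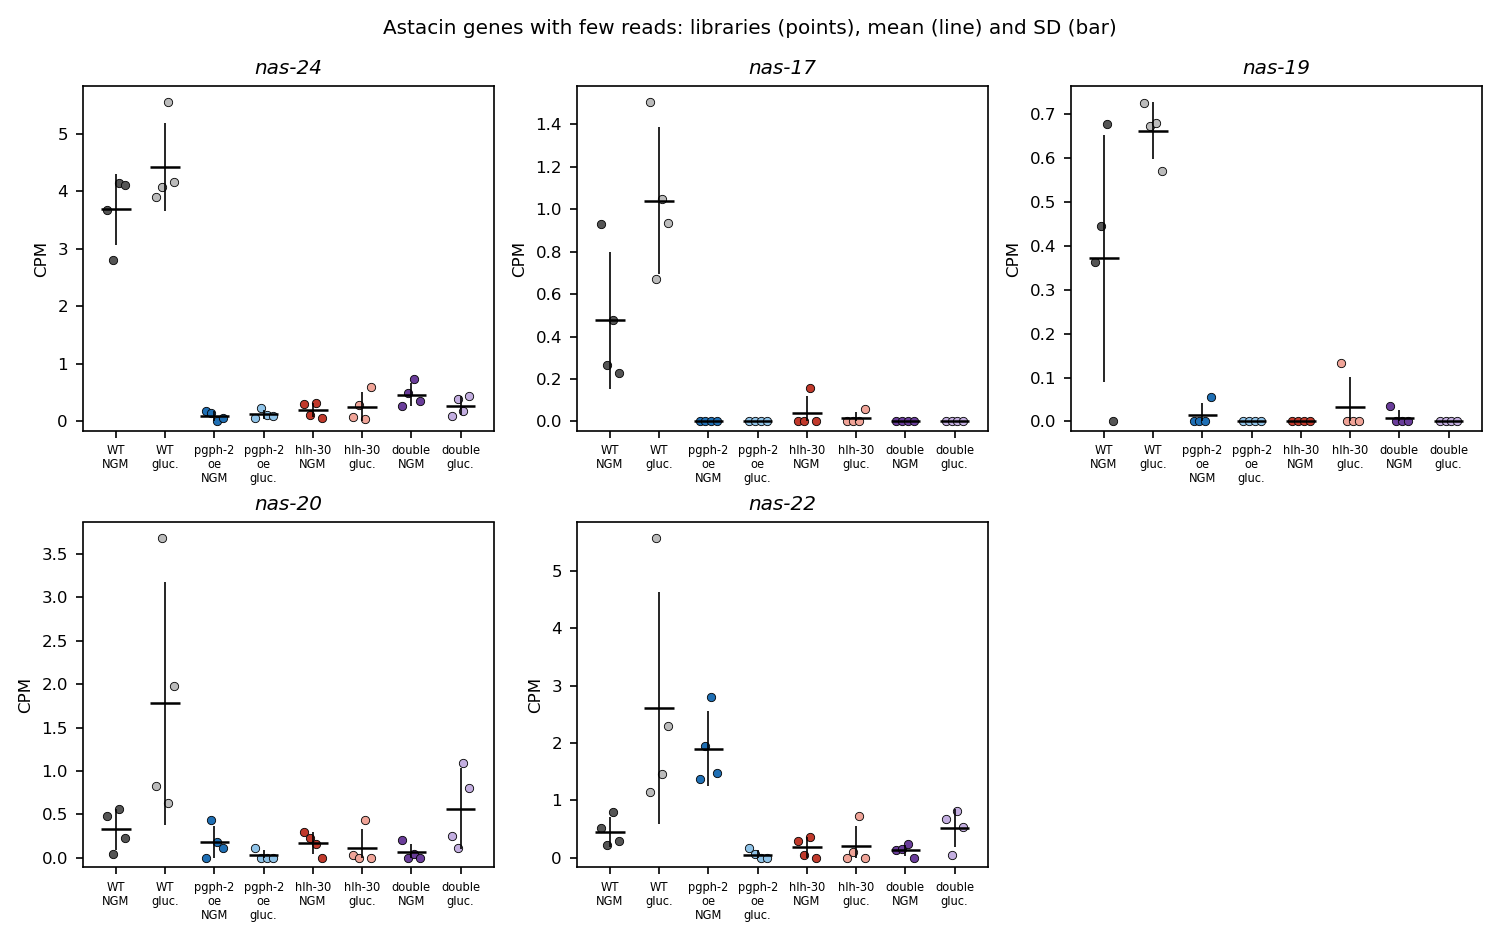
CPM per library (1 point per library) of the astacin genes *nas-24*, *nas-17*, *nas-19*, *nas-20* and *nas-22* in the 8 groups. *nas-24* is at 2.80 to 5.55 CPM in the 8 WT libraries and at 0.731 CPM or less in the other 24, and *nas-22* is at 1.38 to 2.81 CPM in *pgph-2 oe* on NGM.

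The 18 members that were tested and never called included the dual oxidase gene *bli-3* (chromosome I, 146488 to 154850), both *noah* genes, *let-653*, *mlt-2*, *mlt-3* and *mlt-4*, which encode ankyrin-repeat partners of the NEKL kinases, *mlt-11*, *lpr-3*, *lpr-6* and *pxn-1*. *bli-3* lay between 36.4 and 62.8 CPM in all 32 libraries. In *pgph-2 oe* it was higher on glucose than on NGM by 0.38 ± 0.12 (95% interval 0.15 to 0.60, adjusted P = 0.0235), whereas its partner *mlt-7* changed by 1.86 over the same libraries. The abundant matrix genes moved by less than the fold limit in *pgph-2 oe*. *noah-1* was at 869, 668, 717 and 735 CPM on NGM and at 488, 368, 500 and 394 CPM on glucose, without overlap, and fell by 0.77 ± 0.14 (adjusted P = 0.00124), and *lpr-3* fell by 0.76 ± 0.15 (adjusted P = 0.00176). *mlt-11* fell by 0.56 ± 0.12 in the same comparison. *pxn-1*, which can act against *pxn-2*, was at 29.0 to 82.1 CPM in all libraries, while *pxn-2* was at 6.95 to 38.5 CPM. *nas-39*, a tolloid-like astacin gene, was at 3.61 to 11.6 CPM, and since it overlaps a gene on its own strand with more reads its values are uncertain.

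Genes that act with these members were looked at as 2 further lists. Of 22 regulators of the molting cycle, such as the nuclear hormone receptors and the period homolog *lin-42*, 2 were upregulated and 0 downregulated in *pgph-2 oe* against WT on glucose, 3 and 0 in *hlh-30* against WT on glucose, and 1 and 3 in the double mutant against *pgph-2 oe* on NGM. These are 9.09%, 13.6% and 4.55% upward, where 5.44%, 5.89% and 7.58% of all genes were, and 13.6% downward in the last, where 10.7% were. *nhr-25*, a receptor needed for molting, was at 6.01 to 7.32 CPM in WT on glucose and 19.2 to 34.5 CPM in *pgph-2 oe* on glucose, and rose by 2.08 in *pgph-2 oe* and by 2.09 in *hlh-30* over WT on glucose and by 1.89 in the double mutant on NGM. *lin-42* and the epidermal factor gene *grh-1* fell by 1.64 and 1.38 in the double mutant on NGM. Of 33 other molting, peroxidase and matrix genes tested, 4 (12.1%) rose and 7 (21.2%) fell in *pgph-2 oe* against WT on glucose, where 5.44% and 13.7% of all genes did. Only 11 of the 33 were above 0, with a median of -0.36 against 0.02 for all genes, and the lowest was at -5.92. The genes given next are mostly ones that were higher, and do not stand for the list. *doxa-1* and *tsp-15*, which encode partners of BLI-3, were at 9.46 to 11.7 and 7.18 to 8.93 CPM in WT on glucose and at 18.7 to 27.7 and 14.3 to 16.7 CPM in *pgph-2 oe* on glucose, without overlap. The heme peroxidase genes *skpo-1* and *skpo-3* moved in opposite directions, with *skpo-3* at 24 to 27.8 CPM in WT on glucose against 97.4 to 129 CPM in *pgph-2 oe*, and *skpo-1* at 2.96 to 13.6 against 0.308 to 1.77 CPM. *toh-1*, an astacin gene without the *nas* name, was at 14.7 to 21.6 CPM in WT on glucose and at 62.6 to 92.7 CPM in *pgph-2 oe*. In WT, edgeR called 0 of the 22 regulators for glucose, of which 4 were at an unadjusted P under 0.05, against 3681 of 15271 genes tested.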

How the data were processed

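The authors prepared mRNA from whole animals with poly-T selection and sequenced it as read pairs, aligned the reads with Hisat2 to WBcel235 and counted them per gene with featureCounts 1.5.0-p3. The deposited values are raw counts per gene. Whether strand was used and how multi-mapped reads were treated was not given in the sources used here, so reads of overlapping genes cannot be told apart. Gene symbols came from RefSeq, to which 45305 of the 46589 IDs matched, and each gene's coordinates from the deposited table. The columns carried the samples' own names, and all 32 libraries were used.

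Counts were tested with edgeR 4.0.16 in R 4.3.3 (TMM, filterByExpr at count limits of 10 per library and 15 in total, quasi-likelihood F test). Each comparison was fitted on the libraries of its own groups, an interaction on those of 4 groups, with Benjamini-Hochberg adjustment over the 14963 to 15872 genes tested, which also covers adjusted P values printed with replicate numbers in the report. CPM were counts scaled to a library total of 1000000, with each total adjusted by TMM over all 32 libraries. FPKM were made from the same adjusted totals and the gene lengths of the deposited table. Errors of fold changes are standard errors. The labels do not say that replicates were separate cultures, so P values measure the spread between these libraries only. The fits were tested on simulated counts with the same dispersion for every gene and with changes only in genes of higher counts. That test does not cover genes of few reads or libraries that stand apart from their group. Alternatives were DESeq2 1.42.0, edgeR with the size factors of DESeq2, the unfiltered table, the replicate number as a block, each library left out in turn and, added after the data were seen, 2 pairs of libraries left out.

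The genes and lists were chosen with earlier results of these data known. The genes named were a panel chosen by known role and, in each comparison, up to 5 members with the largest rise and 5 with the largest fall among those called whose libraries did not overlap. The other called members are listed to complete each count. Gene sequences were not used here.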

Additional observations from a re-analysis of the deposited data

Results flagged for a closer look

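Within groups of 4 libraries, 12 of 275 tests on 37 members found 1 library apart from the other 3 by Dixon's criterion, where chance alone flags about 1 in 20. In *hlh-30* replicate 4 on NGM 4 of the 12 were found, where *fbn-1* was low at 518 CPM and *mlt-4* at 5.94 CPM, and *nas-7* and *nas-8* were high at 9.81 and 9.51 CPM. This is the library with the low sperm sum. The other *hlh-30* values were *mlt-3*, low in replicate 2 on glucose at 11 CPM, and *pxn-1*, low in replicate 1 on glucose at 59.8 CPM. In WT, *mlt-7* was high in replicate 3 on NGM at 53.4 CPM and *nas-24* in replicate 3 on glucose at 5.55 CPM. In *pgph-2 oe*, *mlt-8* was high in replicate 1 on NGM at 453 CPM and *nas-33* low in replicate 1 on glucose at 4.51 CPM. In the double mutant, *nas-25* was high in replicate 2 on NGM at 3.59 CPM and *nas-15* low in replicate 2 on glucose at 42.5 CPM.

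The effect of *pgph-2* overexpression differed between the diets for 15 members by the interaction term. The difference of the log2 fold changes, glucose minus NGM, was above 0 for *nas-1* at 3.46, *nas-30* at 2.55, *pxn-2* at 2.09, *nas-25* at 2.06, *nas-9* at 2.00, *nas-33* at 1.89, *mlt-7* at 1.77, *fbn-1* at 1.42, *nas-29* at 1.18 and *nas-31* at 1.08. It was below 0 for *nas-22* at -7.48, *nas-20* at -4.95, *mlt-10* at -1.87, *mlt-9* at -1.40 and *nas-37* at -1.12.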

How the results depend on the processing

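Of 100 called values of named members, DESeq2, its size factors and the fit without a filter on low counts each lost 0, and the replicate block lost 2, *nas-25* in *pgph-2 oe* over WT on glucose (1.75, adjusted P = 0.0508 with edgeR) and *nas-22* for glucose in WT (2.28, adjusted P = 0.248). Over all alternatives 1232 of 1348 such values kept direction and call, 116 kept the direction only, and 0 reversed. Same-numbered libraries did not deviate together throughout any comparison, the highest correlations being -0.156, 0.069, 0.416 and 0.425 for glucose in *hlh-30*, so that the block is given here only.

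Counts of called members moved by more than 1.5 times in few settings, and the causes were not tested. DESeq2 gave 3 members lower in *pgph-2 oe* over WT on NGM, 1 higher in the double mutant over *pgph-2 oe* on glucose, 5 higher with glucose in WT and 2 above 0 in the *hlh-30* interaction. Without the filter these were 2, 1 and 2 for the first 3, and 2 rose with glucose in the double mutant. For glucose in WT the replicate block gave 0 and leaving out WT replicates 2 and 4 on glucose gave 0. Without *hlh-30* replicate 4 on NGM and replicate 3 on glucose, 9 members fell with glucose in *hlh-30*, and the *hlh-30* interaction was above 0 for 10 and below 0 for 5.

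With 1 library left out, members higher and lower ranged over 0 to 2 and 1 to 5 for *pgph-2 oe* over WT on NGM, 6 to 10 and 6 to 9 on glucose, 0 to 2 and 3 to 8 for *hlh-30* over WT on NGM, 9 to 11 and 7 to 13 on glucose, and, for the double mutant over *pgph-2 oe*, 8 to 9 and 8 to 8 on NGM and 0 to 1 and 2 to 3 on glucose. For glucose they were 0 to 4 and 0 to 0 in WT, 15 to 17 and 4 to 5 in *pgph-2 oe*, 9 to 18 and 0 to 6 in *hlh-30* and 0 to 3 and 0 to 0 in the double mutant. The interactions ranged over 7 to 12 and 4 to 5 for *pgph-2 oe* and 0 to 5 and 0 to 2 for *hlh-30*. Of 120 member calls 84 held in each such fit.

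Over all genes, glucose in WT gave 91 higher and 89 lower genes, 263 and 128 with DESeq2 and 21 and 41 with the block. Glucose in *hlh-30* gave 530 and 140, 639 and 296, and 632 and 762, and the *hlh-30* interaction 45 and 38, 146 and 385, and 23 and 7. Members under 1 CPM rest on few reads, and differences among them are limited by counting error. In FPKM the order of members in WT on NGM differed from that in CPM, with *lpr-3* moving from rank 4 to 1 and *noah-1* from 2 to 5.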
